A study of Homo sapiens with 6 samples.

Results

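The 10 genes described here encode proteins that cut, export, load and use small hairpin RNAs: DROSHA, DGCR8, XPO5, DICER1, TARBP2, AGO1, AGO2, AGO3, TNRC6A and TNRC6B. They were chosen by name, with no threshold on their values but with earlier results of these data known, from a table of length-normalised transcript levels (TPM) with 25528 gene symbols. All 10 genes were in the table and all 10 passed the minimum mean of 1 TPM, which left 11672 genes for testing. RNA-seq was performed on DU-145/tet-XISTshRNA cells, a castration-resistant prostate cancer line that carries a doxycycline (DOX)-inducible short hairpin RNA (shRNA) against the long non-coding RNA XIST. Vehicle was 0.1% DMSO (n = 3), and the other 3 cultures received 500 ng/ml DOX. Cells of both groups carried the vector and had been selected in puromycin or geneticin, and the sources used here do not say whether they were a clone or a pool. There was no DOX-treated group with a control hairpin in this comparison, so effects of DOX itself, of making a hairpin RNA and of silencing its target cannot be told apart. Because these were bulk RNA samples, fewer transcripts per cell and fewer expressing cells cannot be told apart either.

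MicroRNAs are made from long nuclear transcripts that fold into hairpins. The Microprocessor, formed by the RNase III enzyme DROSHA and its RNA-binding partner DGCR8, releases the hairpin, and XPO5 carries it out of the nucleus. In the cytoplasm, DICER1 with its partner TARBP2 trims the hairpin to a short duplex, from which an Argonaute protein keeps a guide strand. TNRC6 (GW182) proteins bind the Argonaute and recruit the deadenylases that shut down the target mRNA. A vector-made shRNA does not need the Microprocessor when it is transcribed as a short hairpin, but it uses the same export, dicing and Argonaute steps, which is why these genes bear on the load of an induced hairpin. The paper names the supplier of the inducible vector and does not state in which form its hairpin is transcribed.

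The Microprocessor also has a target among the 10 mRNAs themselves, since hairpins in the 5′ part of the DGCR8 transcript are known substrates of DROSHA. The mature sequences of these hairpins, from RefSeq on GRCh38.p14, are shown 5′ to 3′ with the seed (bases 2 to 8) in capitals. miR-3618 lies at chromosome 22, 20085797 to 20085818, in an exon of DGCR8 outside the coding sequence. The arms of miR-1306 lie in the coding exon, at 20086072 to 20086093 (5p) and 20086112 to 20086129 (3p), all on the plus strand.
miR-3618: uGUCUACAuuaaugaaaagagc
miR-1306-5p: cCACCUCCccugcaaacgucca
miR-1306-3p: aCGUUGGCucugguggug
The seeds of these 3 sequences differ from each other. Mature microRNAs were not measured in these mRNA libraries, so the level of a host transcript is all that can be given for them.

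Depth, recovered from the TPM as whole reads, ran from 5459261 reads in vehicle replicate 3 to 64624062 in DOX replicate 1, and the other 4 samples held 16703713 to 20316607. RPPH1, RN7SK and the 3 RN7SL genes, 5 small RNAs made by RNA polymerase III, took 67.5% to 82.6% of all TPM, lowest in vehicle replicate 3 and highest in DOX replicate 1. TPM has a fixed sum, so that a change in a few abundant RNAs can move the values of all others. The median log2 fold change over all genes was -0.35 on the TPM scale and -0.06 without these 5 small RNAs. It was 0.02 after median-of-ratios scaling, in which each sample is set to the median of its gene ratios. Changes are therefore given on both scales. The transcript that the shRNA targets was listed at 0 in all 6 samples, as was EIF4A1, a translation factor gene of all cells, so the silencing could not be checked from these values. The paper measured XIST RNA separately in DU-145/tet-XISTshRNA cells given vehicle or DOX and reports that it was silenced. All 5 epithelial markers (KRT8, KRT18, KRT19, EPCAM, CDH1) were above 1 TPM, with sums of 214 to 358 TPM in vehicle and 258 to 286 in DOX samples. Of 8 immune, endothelial and stromal markers only CD68 passed that level, with sums of 16.0 to 20.5 TPM in vehicle and 11.8 to 13.1 in DOX samples, and CD3E was listed at 0 throughout.

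All 10 genes had a lower mean TPM in DOX-treated cells, but none passed the test. A negative log2 fold change on TPM was common, in 10867 of all 11672 genes tested. With limma on log2(TPM + 1), a gene was called at a Benjamini-Hochberg adjusted p under 0.05 and a fold change over 1.5. By that rule 0 of 10 genes were called lower, against 2.98% of all genes, and 0 were called higher, against 0.0257%. Without vehicle replicate 1 limma called 3 of them lower (DICER1, AGO3 and TNRC6B), against 10.7% of all genes, and without DOX replicate 2 it called 4 (also TNRC6A), against 20.3%. In both of these fits the variance was in effect pooled over genes. With all samples and at an unadjusted p under 0.05, DICER1, AGO3 and TNRC6B (3 genes) also passed the fold threshold as lower, as did 19.0% of all genes, and 5 had such a p with a lower value of any size, as did 29.2% of all genes. The log2 fold changes ran from -0.84 to -0.01 with a median of -0.51, beside -0.35 for all genes. After median-of-ratios scaling limma again called 0 of the 10, 0 genes passed unadjusted at that fold, and the median was -0.09 beside 0.02 for all genes. On that scale 7 of the 10 genes were negative, beside 5483 of all 11630 genes tested. The other 3 (DGCR8, XPO5 and TARBP2) were positive, so the sign of those 3 depended on the scale.

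On TPM, deviations from the group means correlated between samples of the same replicate number, with r from 0.207 to 0.566. After GC and length correction r was -0.00379 to 0.185, and samples of different numbers were not compared. With the replicate number as a block, limma on TPM called 3 of the 10 genes lower. These were DICER1, AGO3 and TNRC6B, and the background in that fit was 19.0% of all genes lower. Its variance was in effect pooled over genes, with standard errors of 0.194 to 0.202 for each of the 10. A voom fit on the recovered reads with the same block, which is not bound to the sum of TPM, called 0 of the 10 in either direction, against 2.25% of all genes lower and 1.48% higher. In that fit DICER1, AGO3 and TNRC6B had log2 fold changes of -0.45, -0.53 and -0.44, all under 1.5-fold, with adjusted p-values of 0.0197, 0.0166 and 0.0149. At an unadjusted p under 0.05 and any size, 3 of the 10 were lower, beside 1933 of 11672 genes, and 2 were higher, beside 1878. With GC and length correction added to that fit, the adjusted p-values of the 3 lower genes were 0.460, 0.353 and 0.124.

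**Figure D1:**
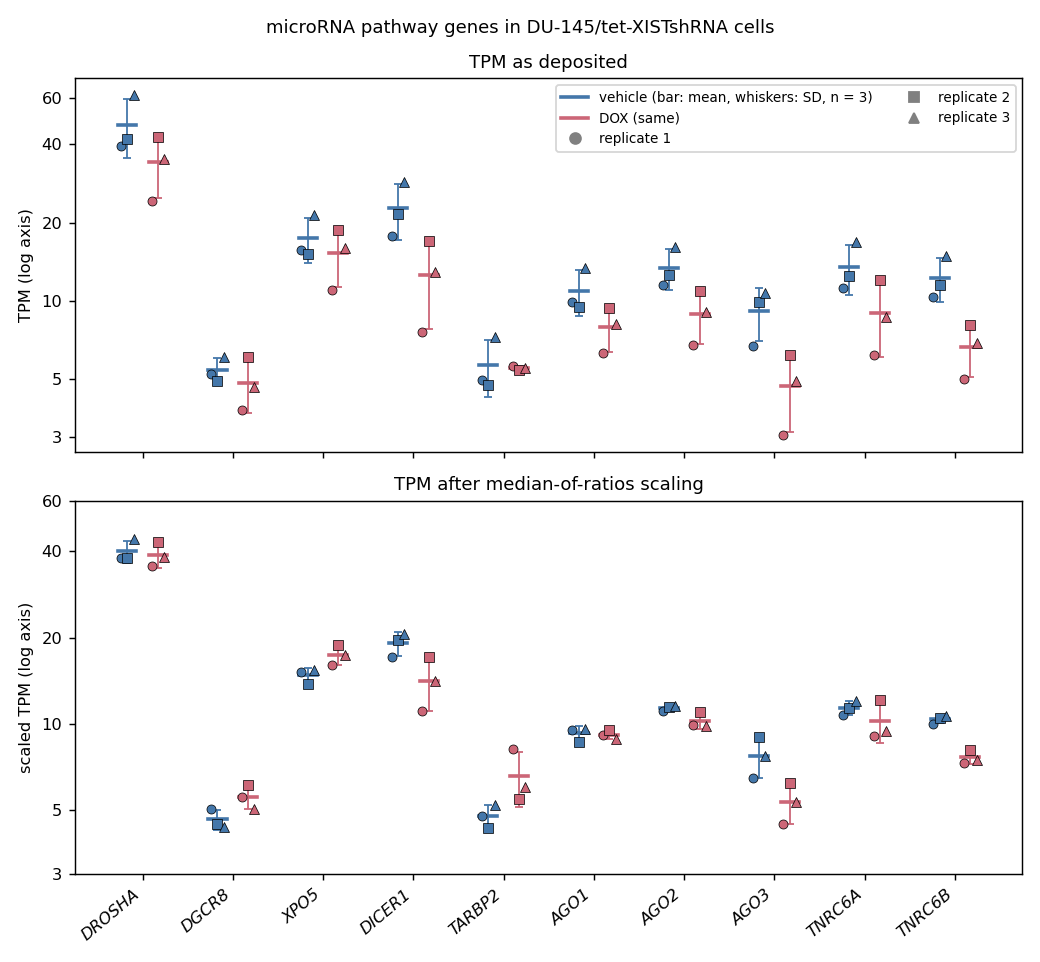
Level of each of the 10 genes in every sample, as deposited TPM (top) and after median-of-ratios scaling (bottom), on log axes, with group means and SD (n = 3) as bars and whiskers and replicates as separate symbols. DROSHA is the highest in both groups, and the gap between groups of TNRC6B (mean 10.4 against 7.64 scaled TPM) is wider than the spread within either group.

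DROSHA was the most abundant of the 10 mRNAs. It measured 39.3, 41.7 and 61.5 TPM in vehicle replicates 1, 2 and 3 and 24.3, 42.7 and 35.1 TPM in DOX replicates 1, 2 and 3. The groups overlapped, because DOX replicate 2 lay above both vehicle replicates 1 and 2. The log2 fold change was -0.48 with a standard error of 0.28 (limma adjusted p = 0.237), and -0.04 on the scaled values (adjusted p = 0.883), where all 6 samples lay between 35.4 and 44.1. The TPM estimate was -0.26 without DOX replicate 1 and -0.28 without vehicle replicate 3. DROSHA maps to chromosome 5, 31400494 to 31532196, on the minus strand, and rested on 1844 to 18669 reads per sample.

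DGCR8, the partner that anchors the hairpin for DROSHA, was among the lowest of the set. Its level was 5.26, 4.93 and 6.12 TPM in vehicle and 3.82, 6.08 and 4.66 TPM in DOX samples, with overlapping groups. The log2 fold change was -0.15 with a standard error of 0.23 (limma adjusted p = 0.634) on TPM and 0.22 on the scaled values (adjusted p = 0.392). The TPM estimate ranged from -0.30 without DOX replicate 2 to -0.02 without DOX replicate 1, and was -0.08 without vehicle replicate 3. The host of miR-3618 and miR-1306 thus differed by less than the spread between replicates on TPM, at 149 to 2385 reads per sample.

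The ratio of DROSHA to DGCR8 within a sample does not depend on the scaling of that sample. It was 7.46, 8.45 and 10.1 in vehicle and 6.36, 7.03 and 7.54 in DOX samples. Each DOX sample was below the vehicle sample of its number, but the groups overlapped. The difference was -0.30 on the log2 scale (two-sided exact permutation test over samples, p = 0.2), and -0.01 after the correction for GC content and length described further on.

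XPO5 exports precursor hairpins and short hairpin RNAs. It measured 15.8, 15.1 and 21.4 TPM in vehicle and 11.1, 18.8 and 15.9 TPM in DOX samples. Its change was within the replicate spread on TPM, with a log2 fold change of -0.19 and a standard error of 0.27 (limma adjusted p = 0.596), and it was 0.0062 without DOX replicate 1, -0.04 without vehicle replicate 3 and -0.35 without DOX replicate 2. On the scaled values all DOX samples (16.1, 18.9 and 17.3) lay above all vehicle samples (15.2, 13.8 and 15.4). This difference of 0.22 did not pass the test (adjusted p = 0.366), and such a separation above vehicle was seen in 10.9% of all genes on that scale. XPO5 is on chromosome 6, 43522334 to 43576038, minus strand.

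DICER1, the RNase III that trims precursor hairpins, was the second most abundant of the set in vehicle samples. It measured 17.7, 21.6 and 28.6 TPM in vehicle and 7.62, 17.02 and 13.0 TPM in DOX samples. Every DOX sample was below every vehicle sample, and DOX replicate 1 was lowest. The log2 fold change of -0.84 with a standard error of 0.28 missed the threshold (limma adjusted p = 0.0636). With the replicate block the adjusted p was 0.000571. On the scaled values the groups touched, at 17.1, 19.7 and 20.5 in vehicle and 11.1, 17.1 and 14.1 in DOX samples, and the log2 fold change was -0.43 (adjusted p = 0.282). DOX replicate 1 weighed heavily, since the TPM change was -0.55 without it. DICER1 lies on chromosome 14, 95086228 to 95158010, minus strand.

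TARBP2, which encodes the DICER1 partner TRBP, was nearly level on TPM. Its values were 4.97, 4.75 and 7.27 TPM in vehicle and 5.61, 5.43 and 5.54 TPM in DOX samples, and its log2 fold change was -0.01 with a standard error of 0.23 (limma adjusted p = 0.978). After scaling, all DOX samples (8.18, 5.46 and 6.03) were above all vehicle samples (4.78, 4.33 and 5.21). DOX replicate 1, the lowest sample for DICER1, was the highest for TARBP2. The scaled log2 fold change was 0.37 (adjusted p = 0.296), and in the voom fit with the block it was 0.52 (adjusted p = 0.0570). TARBP2 had the fewest reads of the set, with 71 in vehicle replicate 3, and is on chromosome 12, 53500921 to 53506431, plus strand.

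The partners of the dicing complex were also compared within each sample. The ratio of DICER1 to TARBP2 was 3.57, 4.54 and 3.94 in vehicle and 1.36, 3.14 and 2.34 in DOX samples. All DOX ratios were below all vehicle ratios, and the ratio was lower in 3 of 3 same-numbered pairs. The mean ratio was 4.02 ± 0.491 (SD, n = 3) in vehicle and 2.28 ± 0.891 (SD, n = 3) in DOX samples. The difference of -0.90 on the log2 scale had an exact permutation p of 0.1 (two-sided), the smallest that 3 against 3 samples can give, so the design cannot reach 0.05. It was -0.56 without DOX replicate 1 and -0.35 after correction for GC content and length, with the groups still apart (exact permutation p = 0.1). The 4 within-sample quantities tested in this way (3 ratios and the AGO2 share) had Benjamini-Hochberg adjusted p-values of 0.2 in each case.

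**Figure D2:**
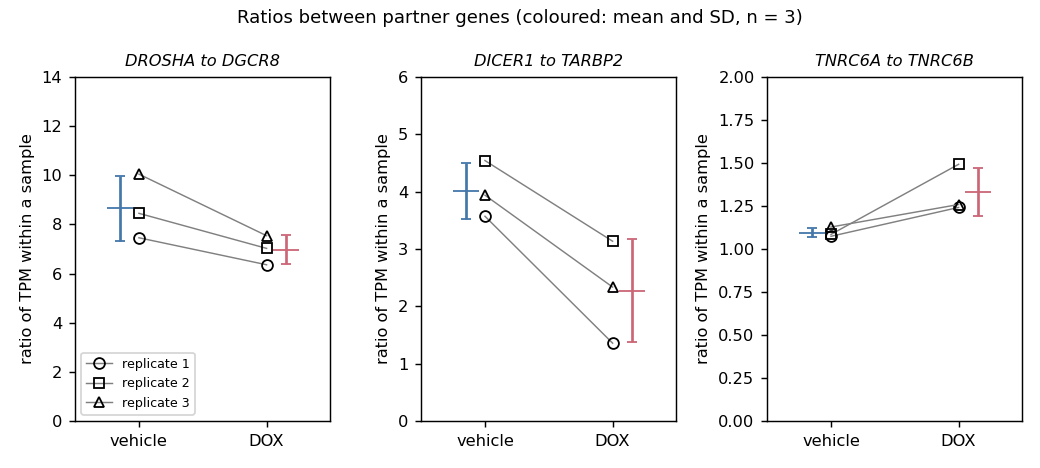
Ratio of the TPM of partner genes within each sample, with lines joining samples of the same replicate number and coloured marks for the mean and SD of each group (n = 3). The DICER1 to TARBP2 ratio is 3.57 to 4.54 in vehicle and 1.36 to 3.14 in DOX samples, and the TNRC6A to TNRC6B ratio is 1.07 to 1.13 in vehicle and 1.24 to 1.49 in DOX samples.

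AGO2, the Argonaute of the set known as an efficient slicer of perfectly matched targets, measured 11.6, 12.6 and 16.1 TPM in vehicle and 6.80, 10.9 and 9.06 TPM in DOX samples. The groups did not overlap on TPM, and they did not overlap on the scaled values either, although there they were close (11.1, 11.4 and 11.5 against 9.90, 11.0 and 9.84). Its log2 fold change was -0.54 with a standard error of 0.25 on TPM (limma adjusted p = 0.149), and -0.14 on the scaled values (adjusted p = 0.543).

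AGO1, the Argonaute with weak slicing activity, was nearly level once scaled. It measured 9.90, 9.50 and 13.4 TPM in vehicle and 6.29, 9.44 and 8.12 TPM in DOX samples, so that all DOX values were below all vehicle values by a narrow margin. The log2 fold change was -0.42 with a standard error of 0.25 on TPM (limma adjusted p = 0.241) and -0.01 on the scaled values (adjusted p = 0.960). Without vehicle replicate 3 the TPM estimate was -0.27, and without DOX replicate 1 it was -0.28.

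AGO3 had the lowest mean level of the Argonautes of the set. It measured 6.75, 9.89 and 10.8 TPM in vehicle and 3.07, 6.21 and 4.92 TPM in DOX samples. Every DOX sample was below every vehicle sample on both scales. The log2 fold change was -0.84 with a standard error of 0.25 (limma adjusted p = 0.0513), and with the replicate block the adjusted p was 0.000475. On the scaled values it was -0.46 (adjusted p = 0.281). AGO3 rested on 208 to 1520 reads per sample.

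AGO4, AGO1 and AGO3 follow each other on the plus strand of chromosome 1, at 35808016 to 35857890, 35869808 to 35930532 and 35930718 to 36072500. These neighbours had different estimates, with TPM log2 fold changes of -0.54 for AGO4, -0.42 for AGO1 and -0.84 for AGO3, a difference that was not tested gene against gene. AGO4, a paralog that is not among the 10 genes, measured 4.73, 5.79 and 6.45 TPM in vehicle and 2.87, 3.99 and 3.92 TPM in DOX samples (limma adjusted p = 0.117).

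As a share of the summed TPM of AGO1 to AGO4, AGO2 made up 35.1%, 33.3% and 34.4% in vehicle and 35.7%, 35.8% and 34.8% in DOX samples. The mean share was 34.2% ± 0.918 (SD, n = 3) in vehicle and 35.4% ± 0.544 (SD, n = 3) in DOX samples, with overlapping groups (two-sided exact permutation test, p = 0.2). The difference of 1.20 percentage points was 0.70 without vehicle replicate 2 and changed sign, to -0.19, after GC and length correction. The summed level of the 4 Argonautes was 32.9, 37.7 and 46.7 TPM in vehicle and 19.0, 30.6 and 26.0 TPM in DOX samples. Shares of the other Argonautes were looked at after the values were seen and were given no test. The share of AGO3 was 23.3% in vehicle and 18.5% in DOX samples, with all DOX samples lower, and that of AGO1 was 28.0% and 31.7%, with all DOX samples higher. Shares across paralogs depend on the gene length used in the TPM, and AGO2 had 349 reads per TPM in vehicle replicate 1 against 82.4 for AGO3, although the exons of AGO3 cover more bases. As shares of reads, AGO2 made up 56.0% in vehicle and 56.2% in DOX samples, and AGO3 8.99% and 6.91%, again with all DOX samples lower for AGO3.

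**Figure D3:**
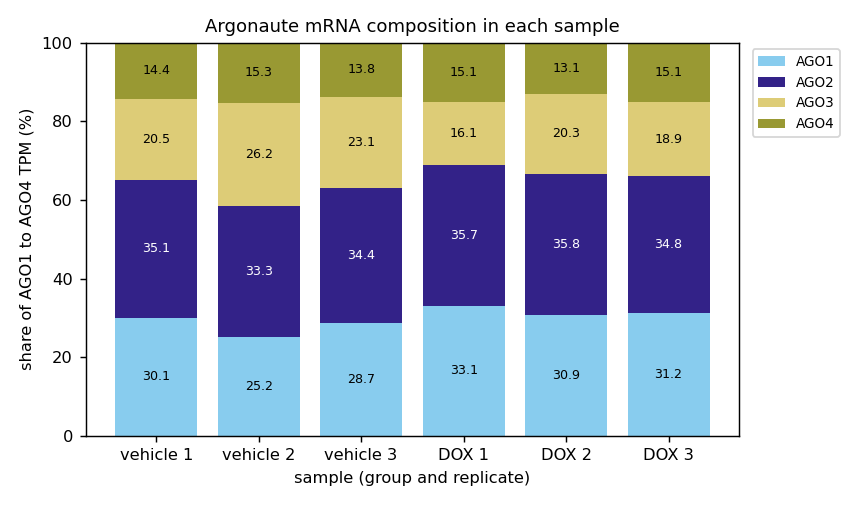
Share of AGO1, AGO2, AGO3 and AGO4 in their summed TPM (%) in each of the 6 samples, each bar adding up to 100%. The AGO2 band stays between 33.3% and 35.8%, while the AGO3 band is 20.5% to 26.2% in vehicle and 16.1% to 20.3% in DOX samples.

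The GW182 proteins TNRC6A and TNRC6B link Argonautes to the deadenylases. TNRC6A measured 11.2, 12.5 and 16.8 TPM in vehicle and 6.23, 12.0 and 8.70 TPM in DOX samples, with overlapping groups. Its log2 fold change was -0.56 with a standard error of 0.26 on TPM (limma adjusted p = 0.149) and -0.15 on the scaled values (adjusted p = 0.569). The TPM estimate was -0.35 without DOX replicate 1. TNRC6A lies on chromosome 16, 24610209 to 24827632, plus strand.

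TNRC6B had close replicates on the scaled values, with coefficients of variation of 3.18% in vehicle and 5.45% in DOX samples. It measured 10.4, 11.5 and 14.9 TPM in vehicle and 5.01, 8.06 and 6.91 TPM in DOX samples. After scaling the values were 10.0, 10.5 and 10.6 in vehicle and 7.30, 8.10 and 7.51 in DOX samples. The gap between the groups on the scaled values was wider than the range of either group. The log2 fold change was -0.80 with a standard error of 0.25 on TPM (limma adjusted p = 0.0568, and 0.00101 with the replicate block) and -0.40 with a standard error of 0.12 on the scaled values (adjusted p = 0.281). TNRC6B lies on chromosome 22, 40044817 to 40335808, plus strand, and rested on 1574 to 13624 reads per sample.

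The ratio of TNRC6A to TNRC6B was 1.07, 1.09 and 1.13 in vehicle and 1.24, 1.49 and 1.26 in DOX samples. All DOX ratios were above all vehicle ratios. The difference was 0.28 on the log2 scale (two-sided exact permutation test, p = 0.1, the smallest possible), and it stayed at 0.26 after correction for GC content and length. TNRC6C, the third paralog, was low at 2.28, 2.22 and 2.91 TPM in vehicle and 1.66, 1.84 and 1.94 TPM in DOX samples (limma adjusted p = 0.287). As a share of TNRC6A, TNRC6B and TNRC6C together, a quantity chosen after its values were seen, TNRC6B made up 43.6%, 43.9% and 43.0% in vehicle and 38.9%, 36.8% and 39.4% in DOX samples.

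Counted over the set, 5 of 10 genes (DICER1, AGO1, AGO2, AGO3 and TNRC6B) had every DOX sample below every vehicle sample on TPM, beside 30.7% of all genes. On the scaled values 3 of 10 (AGO2, AGO3 and TNRC6B) lay below, beside 9.13% of all genes, and 2 of 10 (XPO5 and TARBP2) lay above, beside 10.9%. The order of the mean levels in vehicle samples was DROSHA, DICER1, XPO5, TNRC6A, AGO2, TNRC6B, AGO1, AGO3, TARBP2 and DGCR8. DROSHA was separated from the next gene beyond the spread in both groups, and the ranges of all other neighbours overlapped across samples. Within samples the order was often steadier, since DICER1 exceeded XPO5, XPO5 exceeded TNRC6A, AGO2 exceeded TNRC6B, TNRC6B exceeded AGO1 and AGO3 exceeded TARBP2 in 3 of 3 vehicle samples. In DOX samples XPO5 ranked above DICER1, and AGO3 was last by mean. DGCR8, the next gene above AGO3, exceeded it in only 1 of 3 DOX samples. TARBP2 and DGCR8 did not differ beyond their spread in either group.

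**Figure D4:**
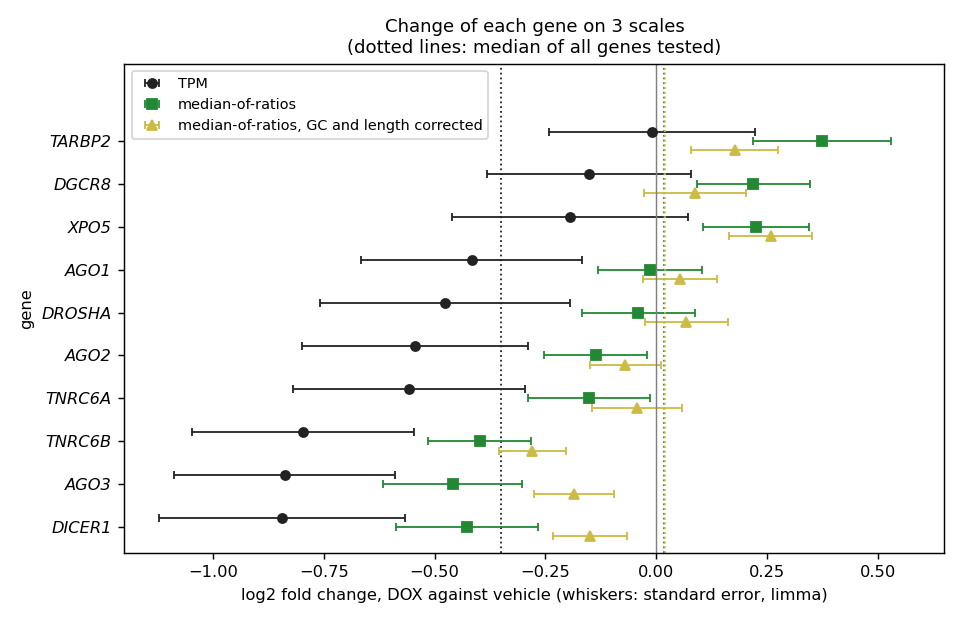
Log2 fold change of each gene, DOX against vehicle, with limma standard errors, on TPM, on median-of-ratios scaled TPM, and on scaled TPM corrected for GC content and exonic length. Dotted lines mark the median of all genes tested, at -0.35 on TPM and 0.02 on both other scales, and TARBP2, DGCR8 and XPO5 change side between TPM and the scaled values.

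The estimates went with the base composition and the annotated exonic length of the gene, which is not the length behind the deposited TPM. Over the 10 genes, Pearson's r between log2 fold change on TPM and GC content of the exons was 0.89, and with the logarithm of exonic length it was -0.93. Over all 11199 genes with an annotation these values were 0.68 and -0.34. They are descriptions across genes that share the same 6 libraries. The genes with the most negative estimates were AT-rich and long by annotation. DICER1 had 22151 exonic bases at 39.0% GC, AGO3 had 21153 at 39.1%, and TNRC6B had 19998 at 44.9%. For AGO3 the deposited TPM used a much shorter length. It had 82.4 reads per TPM in vehicle replicate 1, against 256 for DICER1 and 452 for TNRC6B. The relation was computed with annotated length only, and a relation with the length behind the TPM was not tested. TARBP2 and DGCR8, with the estimates nearest to 0 on TPM, had 4090 bases at 56.9% and 7326 at 56.1%. The 10 genes were longer than most, with a median exonic length of 13505.5 against 5475 bases, and close to all genes in GC content (45.8% against 47.0%).

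When GC content and exonic length were fitted out of the scaled values, the median log2 fold change of the 10 genes was 0.0048. DICER1 was then -0.15, AGO3 -0.19 and TNRC6B -0.28, and none of the 10 was called. TNRC6B was the gene with the most negative corrected estimate of the set.

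**Figure D5:**
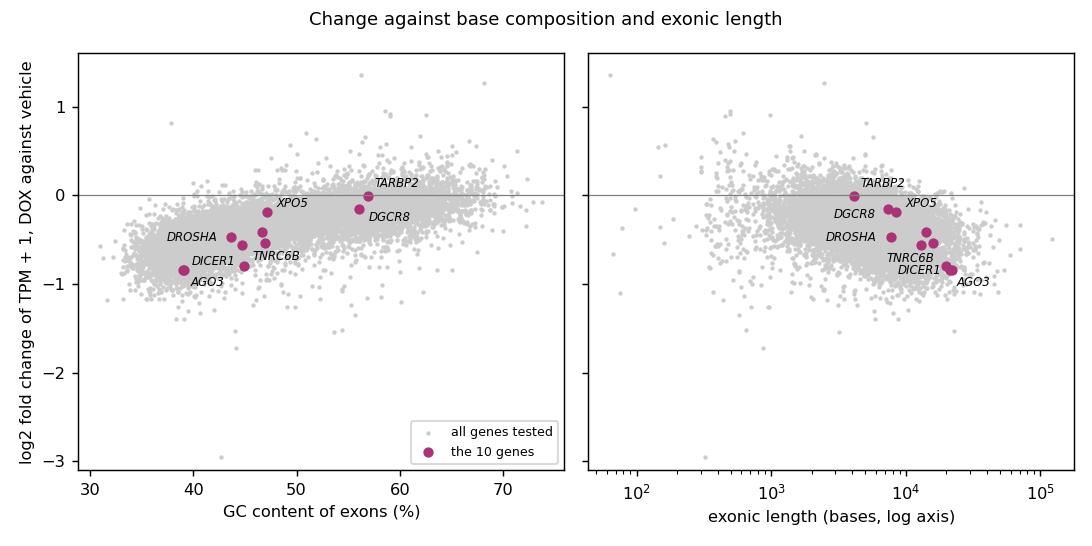
Log2 fold change on TPM, DOX against vehicle, plotted against the GC content of exons (left, %) and exonic length (right, bases, log axis) for all annotated genes tested (grey) and the 10 genes (purple). DICER1 and AGO3, at 39.0% and 39.1% GC with 22151 and 21153 bases, both sit at -0.84, and TARBP2 at 56.9% GC sits at -0.01.

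The proteins around the 10 genes were taken from 5 lists with 47 genes, of which 44 passed the minimum. Of these 44, 43 had a negative log2 fold change on TPM, as did 10867 of all 11672 genes tested. The median was -0.45, beside -0.35 for all genes. Against 2.98% of all genes called lower, limma called 0 of the 44. At an unadjusted p under 0.05, 8 of them also passed the fold threshold as lower, beside the 19.0% of all genes given for that criterion. With the replicate block 8 were called lower on TPM, beside the 19.0% of all genes in that fit. On the scaled values 23 were negative, beside 5483 of all 11630 genes, 21 were positive, and 0 were called.

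Among 11 Microprocessor partners, 0 were called and the median was -0.31 on TPM. The helicase gene DDX5 had the most negative value, -0.70 (limma adjusted p = 0.0989), and KHSRP, a hairpin loop-binding protein gene, the least, -0.07. Among 9 partners of export, dicing and loading, 0 were called and the median was -0.35. TSNAX, a subunit of the nuclease C3PO, had -0.80 (adjusted p = 0.0710). FKBP4, an HSP90 co-chaperone gene, was the only one of the 44 with a positive TPM value, 0.18 (adjusted p = 0.604), and the only one that voom with the block called, with a log2 fold change of 0.60 upward.

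Of 8 genes for turnover of precursors and microRNAs, 5 passed the minimum and 0 were called. ZCCHC11 (TUT4), a terminal uridylyltransferase, measured 15.4, 19.2 and 24.7 TPM in vehicle and 6.84, 13.2 and 12.0 TPM in DOX samples, with a log2 fold change of -0.85 (limma adjusted p = 0.0588). SND1, a Tudor nuclease, had -0.13. Among 11 silencing effectors and paralogs, 0 were called with a median of -0.51, from -0.67 for the deadenylase subunit PAN3 (adjusted p = 0.0934) to -0.09 for the helicase MOV10. Among 8 other double-stranded RNA-binding proteins, 0 were called with a median of -0.54. EIF2AK2, which encodes the RNA-sensing kinase PKR, measured 29.0, 34.0 and 40.8 TPM in vehicle and 13.4, 28.1 and 20.9 TPM in DOX samples, with a log2 fold change of -0.75 (limma adjusted p = 0.0863). STAU1 had the least negative value of that list, -0.30. With the block on TPM, DDX5, TSNAX, ZCCHC11, PAN3 and EIF2AK2 were each called lower, with adjusted p-values of 0.00425, 0.00104, 0.000516, 0.00589 and 0.00226.

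MicroRNA host genes, whose transcripts feed the pathway, were read from symbols of the form MIR-number-HG. Of 59 such symbols 11 passed the minimum, and limma called 0 on TPM, against 2.98% of all genes lower, and 2 lower with the replicate block, against 19.0%. The highest 3 by mean TPM were MIR181A2HG, MIR503HG and MIR4435-2HG. MIR181A2HG measured 35.3, 44.1 and 72.3 TPM in vehicle and 24.4, 35.6 and 38.1 TPM in DOX samples, with a log2 fold change of -0.57 (adjusted p = 0.173). MIR503HG measured 8.07, 8.48 and 9.46 TPM in vehicle and 4.11, 6.91 and 12.0 TPM in DOX samples, a spread in DOX samples that covered all vehicle values (adjusted p = 0.477). For MIR4435-2HG the log2 fold change was -0.39 (adjusted p = 0.261), and all 3 hosts had overlapping groups.

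The microRNAs carried by these hosts are shown, from the same RefSeq build, because they name the products of the hosts measured, although the TPM is that of the host gene and no precursor was measured. miR-181a and miR-181b lie on the plus strand of chromosome 9, at 124692480 to 124692502 and 124693725 to 124693747, miR-503 on the minus strand of chromosome X at 134546371 to 134546393, and miR-4435 on the minus strand of chromosome 2 at 111321061 to 111321082. Each lies in an intron of its host. The seed is in capitals.
miR-181a-5p: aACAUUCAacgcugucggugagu
miR-181b-5p: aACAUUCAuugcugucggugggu
miR-503-5p: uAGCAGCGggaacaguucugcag
miR-4435: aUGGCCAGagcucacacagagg
miR-181a-5p and miR-181b-5p share a seed, so that MIR181A2HG, the most abundant of these hosts, carries a pair of microRNAs with the same seed, and the other seeds differ.

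The genes whose log2(TPM + 1) followed DICER1 most closely over the 6 samples were TRAPPC8, MAPK8 and ATF7IP, with Pearson's r of 0.9999, 0.9998 and 0.9997. For AGO2 they were NCOR1, INTU and USF3. Such values were common, since 30.1% of all genes had an r above 0.95 with DICER1 and 27.1% with AGO2 over the same 6 libraries.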

How the data were processed

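Samples were grouped from the labels as vehicle or DOX, replicates 1 to 3. The authors aligned stranded mRNA reads with STAR to GRCh38 (versions, counting tool and strand setting not given in the sources used here) and deposited TPM per gene symbol, with length in the unit and each sample summing to 1000000. They also deposited DESeq2 output, whose fold changes, standard errors, test statistics and p-values were not used. Its mean normalized count, a signal averaged by the authors over all samples, was used with the TPM to recover whole reads per gene. Of 102298 values checked, 100% came out whole within 0.05 (10% by chance). The labels name a column kit for RNA and the paper names Trizol.

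limma 3.58.1 (R 4.3.3; eBayes with a variance trend) was run on log2(TPM + 1) for genes whose mean reached 1 TPM, with Benjamini-Hochberg adjustment over all genes. Fold changes on this scale understate those of low genes. The low-count limit is set by vehicle replicate 3. Ratios were tested by exact permutation with SciPy 1.17.1 (Python 3.11.15). Alternatives were another pseudocount, no minimum, median-of-ratios scaling, removal of small RNAs, a replicate block, voom, GC and length correction (splines with 5 degrees of freedom, GENCODE release 44, 96.0% of genes matched), and leaving out each sample.

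Pairing was checked by the correlation of same-numbered samples' deviations from their group means, 0.566, 0.235 and 0.207 on TPM for replicates 1, 2 and 3, all above 0.1. After GC and length correction it was 0.185, -0.00379 and 0.168. The pairing rests on these correlations alone, since no label explains the numbers. The labels give cultures in triplicate and the paper states independent biologic replicates for its experiments in general. The permutation p-values measure the spread between these cultures. Those of limma also draw on a variance shared over genes. In the main fit on TPM that shared variance outweighed the spread of the single gene.

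Named genes were all 10 members, called genes, AGO4, TNRC6C, the extremes of each list, the 3 most abundant host genes, and the 3 genes nearest to DICER1 and AGO2. The members and lists were chosen with earlier results of these data known. A further marker list is not reported here.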

Additional observations from a re-analysis of the deposited data

How the results depend on the processing

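The replicate block moved the number of the 10 genes called lower on TPM from 0 to 3, beside 19.0% of all genes lower in the blocked fit. The block with GC and length correction gave 1 (TNRC6B), beside 1081 of 11199 genes called lower. Leaving out each sample gave 0 to 4, with 3 without vehicle replicate 1 (DICER1, AGO3 and TNRC6B) and 4 without DOX replicate 2 (also TNRC6A). The backgrounds of these 2 fits were 10.7% and 20.3% of all genes lower, and their variance was in effect pooled over genes. Over all genes, 351 calls became 48 with a pseudocount of 0.1, 0 without the expression minimum, 0 with median-of-ratios scaling (alone, blocked, or corrected for GC and length), 1 without the small RNAs, 1 with voom, 2232 with the replicate block, 1087 when the block was joined to GC and length correction, 6 with voom, block and that correction, and 0 to 2389 when a sample was left out (0 without vehicle replicate 3, 2389 without DOX replicate 2). The median log2 fold change of the 10 genes, -0.51, was -0.089 with median-of-ratios scaling with or without the block, -0.094 with voom, -0.093 with blocked voom, and -0.17 without the small RNAs. It was 0.0048 and 0.019 when median-of-ratios scaling or blocked voom was joined to GC and length correction, and -0.67 to -0.31 when a sample was left out.

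DGCR8, XPO5 and TARBP2 were positive under each of the 7 alternatives that rescale the samples. The values were 0.22, 0.22 and 0.37 with median-of-ratios scaling (the same with the block), 0.14, 0.14 and 0.30 without the small RNAs, 0.25, 0.24 and 0.52 with voom, and 0.26, 0.24 and 0.52 with blocked voom. With GC and length correction they were 0.087, 0.26 and 0.18 (median-of-ratios) and 0.093, 0.28 and 0.26 (blocked voom), where DROSHA (0.068 and 0.091) and AGO1 (0.053 and 0.068) were also positive. Leaving out a sample gave -0.35 to 0.0062 for XPO5 and -0.11 to 0.16 for TARBP2. The difference in AGO2 share, 1.20 percentage points, was -0.19 after GC and length correction. DICER1, AGO2, AGO3, TNRC6A and TNRC6B kept a negative estimate under all 18 alternatives, and the block changed no other call among the 10 genes. The cause of these shifts was not tested. Both fits that join median-of-ratios scaling or blocked voom to GC and length correction were chosen after seeing the data.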
